A study of Drosophila melanogaster with 11 samples.

Results

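The genes described here encode structural proteins of the insect cuticle. They were chosen by symbol: every gene of the table whose FlyBase symbol begins with Cpr and a number, or with Lcp, Ccp84 or Twdl. This rule took 117 of 13931 genes, of which 70 were Cpr genes, 15 Lcp genes, 7 Ccp84 genes and 25 Twdl genes. Poly-A RNA of the larval fat body was sequenced, the organ in which a larva stores nutrients and makes most of its haemolymph proteins. All libraries came from female late wandering third-instar larvae, and each was made from a pool of dissected fat bodies. The groups were the isofemale strains MU10, MU12, MU14, MU17 and MU26, each founded by a single female of a German population, and the labels give no treatment for any of them. MU14 had 3 libraries and the other strains had 2 each, 11 libraries in all, which the study describes as biological replicates.

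Insect cuticle is a layered material of chitin fibres and proteins that the epidermis and other surface epithelia secrete, and that is replaced at each moult. Cpr proteins carry the Rebers and Riddiford domain, which binds chitin, and the proteins named Lcp (larval cuticle protein) and Ccp84 belong to the same family under older names. Tweedle proteins, encoded by the Twdl genes, are a separate family of cuticle proteins in which mutations can change body shape. The fat body lies inside the body cavity and is not counted among the tissues that secrete cuticle. Fewer cells of a type and less RNA per cell cannot be told apart in such bulk samples, and this holds for every level below.

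Libraries held between 34631482 and 49582725 counts, and between 10591 and 11871 genes had at least 1 count. The summed level of 6 fat body marker genes was 281826 to 434186 CPM (counts in each 1000000 of a library, with the library size corrected by TMM factors). The summed level of 14 genes of epidermis and apical matrix was 5.38 to 17.2 CPM, and that of 5 tracheal genes 3.69 to 9.08 CPM. None of these epidermal markers was at 0 in all libraries: grainy head (grh), a transcription factor of barrier epithelia, lay between 0.507 and 1.34 CPM. MU12 replicate 1 stood apart in the cuticle protein genes. Without Cpr49Ac and Cpr31A their summed level was 12.6 CPM in that library and 44.8 CPM in MU12 replicate 2, while it ranged between 19.5 and 43.9 CPM in the other strains.

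A single cuticle protein gene reached 10 CPM in every strain, and 116 did not. That gene was Cpr49Ac, with a mean of 5985 CPM over the strains, and it held 99.23% of all counts of the 117 genes. Lcp1 lay just below the limit with 8.69 CPM in its lowest strain, followed by Lcp2 with 2.08 CPM and Lcp4 with 1.64 CPM in theirs, and no gene lay between Lcp1 and Cpr49Ac. Only Cpr49Ac, Lcp1 and Cpr31A exceeded 10 CPM in at least 1 strain. Above 1 CPM in every strain were 6 genes (Cpr49Ac, Lcp1, Lcp2, Lcp4, TwdlE and Cpr78E), and above 1 CPM in at least 1 strain were 13.

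**Figure D1:**
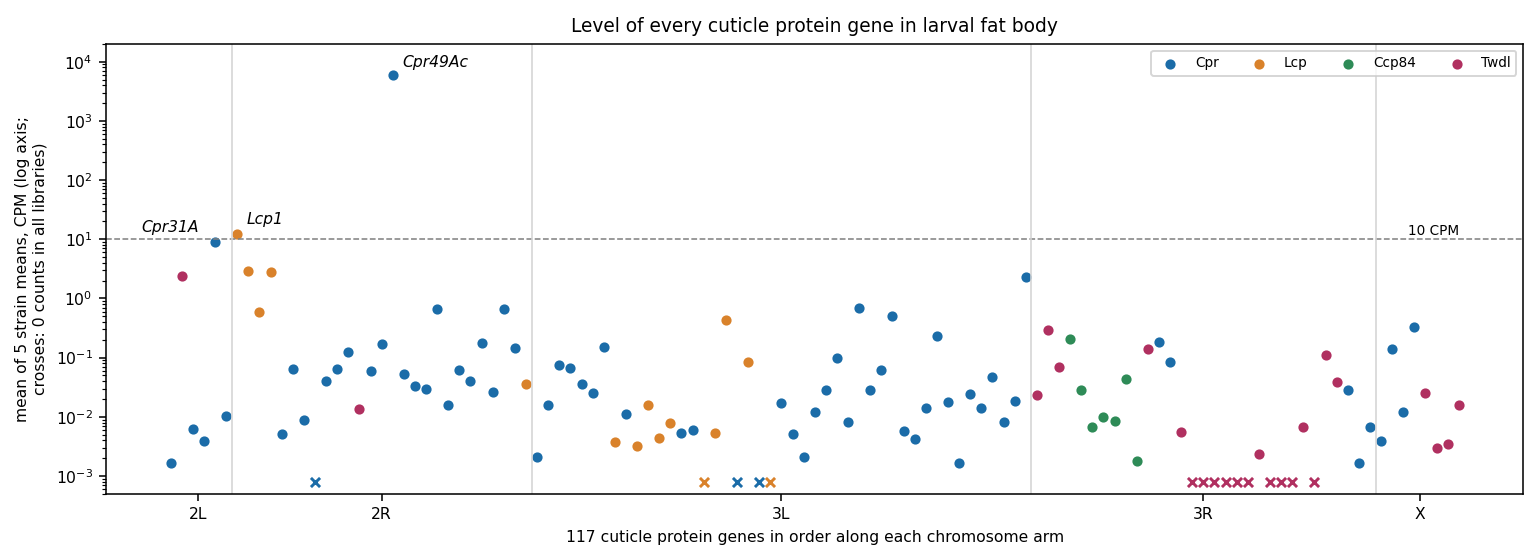
Level of all 117 cuticle protein genes, in order along each chromosome arm on the horizontal axis, as the mean of the 5 strain means in CPM on a log axis, with families in colour and genes without a count as crosses at the bottom. Cpr49Ac at 5985 CPM stands above all others, Lcp1 at 12.3 CPM and Cpr31A at 8.98 CPM follow, and the crosses on the right arm of chromosome 3 are Tweedle genes.

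At the other end, 15 of the 117 genes had 0 counts in all 11 libraries, which allows a level of up to 0.00701 CPM over all libraries together, counting error only. This was 12.8% of the cuticle protein genes, against 3.50% of all genes of the table (487). A further 48 had between 1 and 10 counts in all libraries together, and 21 had at least 1 count in every library. The genes without a count were 10 Tweedle genes (TwdlB, TwdlH, TwdlJ, TwdlK, TwdlL, TwdlO, TwdlP, TwdlQ, TwdlR and TwdlS), 3 Cpr genes (Cpr47Ed, Cpr65Ax1 and Cpr65Ax2) and 2 Lcp genes (Lcp65Aa and Lcp65Ad). Of the Tweedle genes 9 lie in 1 group of 12 between TwdlM and TwdlD (3R:26619118-26641054), which had 8 counts in all. Read pairs that fitted more than 1 gene had been discarded by the authors, so a low value of near-identical neighbours such as Cpr65Ax1 and Cpr65Ax2, or Lcp65Ab1 and Lcp65Ab2, is uncertain.

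Within some groups of neighbouring cuticle protein genes a single gene held most of the counts, while other groups were near 0 throughout. With gaps under 20000 bases counted as neighbours, 89 of the genes lay in 17 groups and 28 lay alone. In the Cpr49A group of 8 genes (2R:12376626-12415170) Cpr49Ac held 99.98% of 2418034 counts. In the Lcp65A group of 17 genes (3L:6130386-6161589) there were 268 counts, of which Lcp65Ab2 held 71.6%. The 7 Ccp84 genes (3R:6686728-6704903) had 4 to 24 counts per library together, most of them from Ccp84Ag with 64.7% of the counts of the group.

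Differences between strains were tested where a gene averaged 15 or more counts in a library. This filter passed 13 of the cuticle protein genes (11.1%), against 8415 of all genes (60.4%). They were 7 Cpr genes, 5 Lcp genes and TwdlE. The 104 genes not tested had a median of 6 counts over all libraries, and their highest mean level was 0.327 CPM. Together these untested genes had 241 and 271 counts in the MU17 libraries, 157 and 160 in MU10, 134 to 192 in MU14, 115 and 200 in MU12, and 107 and 81 in MU26.

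Across the 5 strains 6 of the 13 tested genes differed (46.2%). The test was edgeR's quasi-likelihood F test, with p-values adjusted by Benjamini-Hochberg over all tested genes and a false discovery rate of 0.05. The same test called 48.3% of all 8415 genes, so the share among cuticle protein genes was near the background. The genes called were Cpr49Ac, Cpr31A, Lcp3, Lcp65Ab2, Cpr67Fb and TwdlE. Between the highest and the lowest strain mean, each raised by 0.0514 CPM, the median log2 range of the 13 genes was 1.35, against 0.78 over all tested genes, and it exceeded 1 in 11 of them, against 38.95% of all tested genes. Their median level was 2.33 CPM, against 11.04 CPM over all tested genes. Without any 1 MU14 library, 4 cuticle protein genes were called, beside 38.1% to 41.3% of all tested genes. Where a library of another strain was left out, that strain kept only 1 library. The share of all tested genes called was below 48.3% in those fits too.

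**Figure D2:**
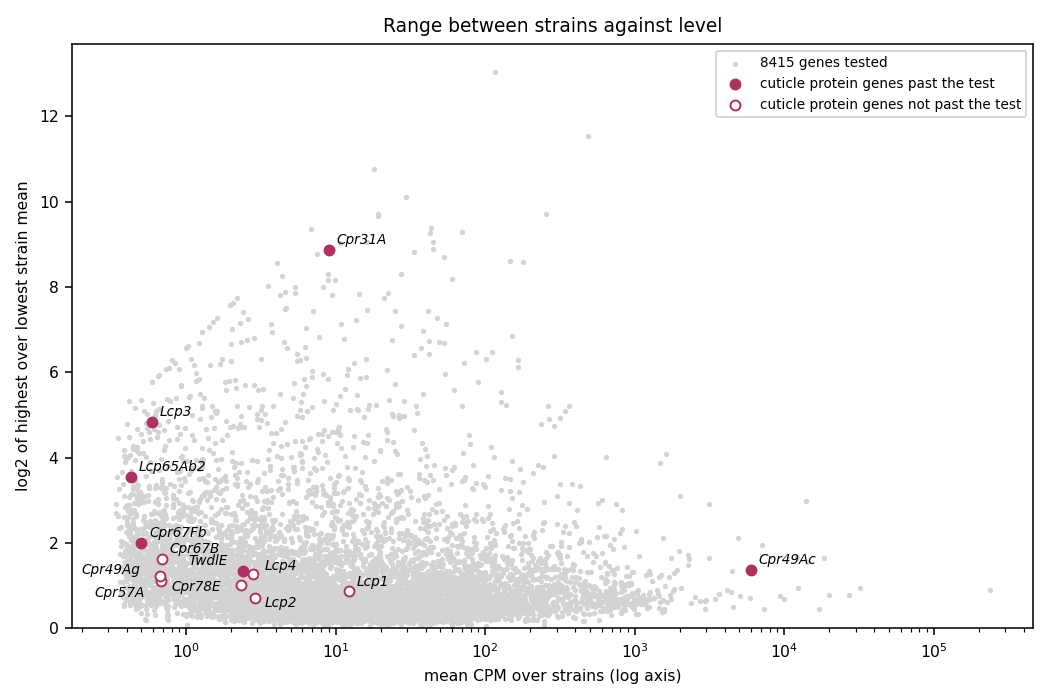
Log2 of the highest over the lowest strain mean, each raised by 0.0514 CPM, on the vertical axis, against the mean CPM over strains on a log axis, for 8415 tested genes in grey and 13 cuticle protein genes in red, filled where the test across strains was passed and open where it was not. Cpr31A has a range of 8.87, and Cpr49Ac at 5985 CPM has a range of 1.36.

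Cpr49Ac (FBgn0033725; 2R:12386666-12390057, plus strand, 6 annotated transcripts) encodes a chitin-binding protein of the Cpr family. Its level was 8456 and 8677 CPM in MU10, 8241 and 7758 CPM in MU26, 5680 and 5279 CPM in MU12, 4895 and 4211 CPM in MU17, and 3144, 4018 and 2819 CPM in MU14. The libraries of MU10 and MU26 were all above those of MU12, which were all above those of MU17 and MU14, and MU17 did not overlap MU14. The strain means were 8566 ± 156 CPM in MU10, 8000 ± 342 CPM in MU26, 5480 ± 283 CPM in MU12, 4553 ± 484 CPM in MU17 and 3327 ± 619.8 CPM in MU14 (SD, n = 2, and n = 3 in MU14).

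Among all genes Cpr49Ac was abundant. It took 0.291% to 0.825% of all counts in the libraries, and its rank by counts lay between 12 and 28. Per kilobase of its deposited length it ranked 17 of 13931 genes, with a mean of 3454 CPM per kb, and the next cuticle protein gene was Lcp1 with 11.5 CPM per kb. The deposited length of Cpr49Ac, 1733 bases, is shorter than its 2117 annotated exon bases, on which its value per kb would be lower. Its exons overlap no other gene in the annotation. No other member of its group was near this level: Cpr49Ag, which is 1 of the 8 genes, averaged 0.664 CPM.

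The differences in Cpr49Ac passed the test across strains with an adjusted p of 7.47e-04 (edgeR). MU10 exceeded MU14 by a log2 difference of 1.36 ± 0.15 (SE, adjusted p = 5.80e-04, edgeR) and MU17 by 0.91 ± 0.16 (0.00679). MU26 also exceeded MU14, with a difference of −1.27 ± 0.15 coded as MU14 minus MU26 (adjusted p = 8.12e-04, edgeR). MU12 exceeded MU14 by 0.72 ± 0.15 (adjusted p = 0.00828, edgeR). These 4 differences, and the test across strains, held under every alternative and with any 1 library left out.

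Other pairs in Cpr49Ac were closer. MU17 minus MU26 was −0.81 ± 0.16 (adjusted p = 0.0102, edgeR), a call that was lost without MU17 replicate 2. MU10 minus MU12 was 0.64 ± 0.16 (adjusted p = 0.0254, edgeR) and MU12 minus MU26 was −0.55 ± 0.16 (0.0392). The first of these was lost without either MU10 or either MU12 library, and the second with no filter and without any of the MU10, MU12 and MU26 libraries or MU14 replicate 1. The differences MU10 minus MU26 (0.10 ± 0.16, adjusted p = 0.721, edgeR), MU12 minus MU17 (0.27 ± 0.16, 0.267) and MU14 minus MU17 (−0.45 ± 0.15, 0.0674) did not pass, although the last did with DESeq2 and without MU14 replicate 2.

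The sum of the epidermal markers was lowest in the strains with most Cpr49Ac. This sum was 7.92 and 5.38 CPM in MU10 and 7.47 and 6.35 CPM in MU26, against 11.1 and 9.99 CPM in MU12, 11.7 and 17.2 CPM in MU17, and 11.6, 11.2 and 12.3 CPM in MU14. Of the 14 markers 7 were tested and 4 passed across strains, against 48.3% of all tested genes. Single markers differed from the sum: mwh, which passed, averaged 1.21 CPM in MU10, against 0.491 CPM in MU14, and nyo, which also passed, was lowest in MU12 with 0.341 CPM. Haemocyte markers, of which 7 of 7 passed, summed to 174 and 106 CPM in MU10, 39.0 and 45.2 CPM in MU26, 53.6 and 86.1 CPM in MU12, 114 and 93.4 CPM in MU17, and 87.1, 97.8 and 80.9 CPM in MU14, so that the strains with most Cpr49Ac held both the highest and the lowest of these sums. The part of these cells in the Cpr49Ac level was not tested.

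**Figure D3:**
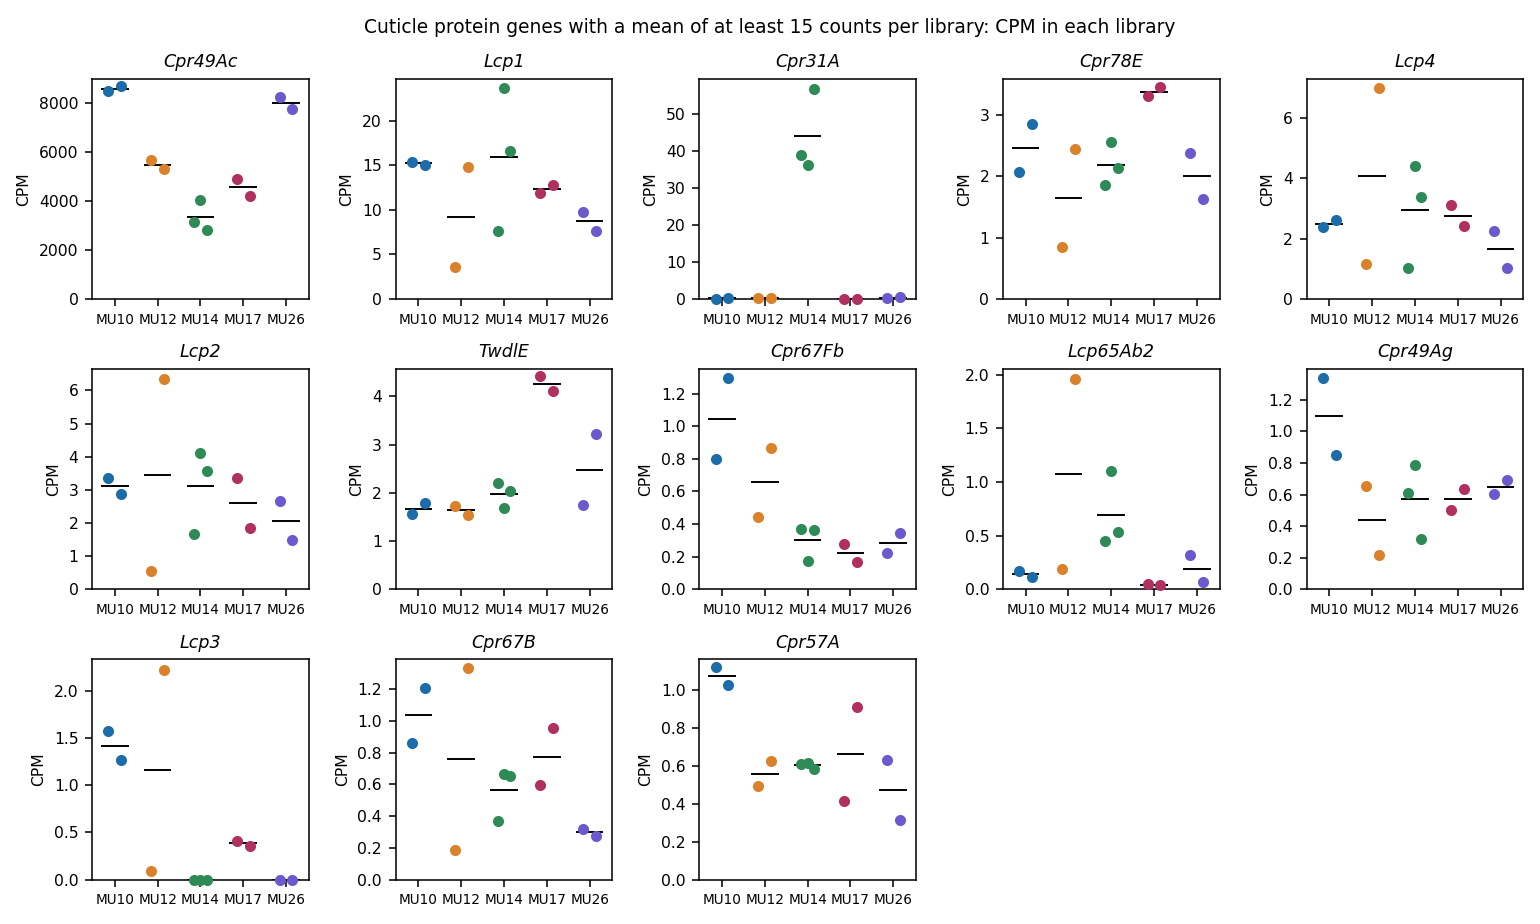
CPM of the 13 tested cuticle protein genes in each library, by strain, with a point per library, a bar at the strain mean and each vertical axis starting at 0. Cpr49Ac is highest in MU10 and MU26, Cpr31A lies between 36.25 and 56.6 CPM in MU14 and near 0 elsewhere, and the Lcp genes differ widely between the 2 libraries of MU12.

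Cpr31A (FBgn0053302; 2L:10054213-10055935, plus strand, 1 transcript), another Cpr gene, was expressed almost entirely in MU14. Its level was 39.0, 36.25 and 56.6 CPM in the 3 MU14 libraries, against 0.376 and 0.380 CPM in MU12, 0.222 and 0.451 CPM in MU26, 0.0863 and 0.235 CPM in MU10, and 0 and 0.0848 CPM in MU17. As counts, MU14 had 1467, 1477 and 2332, or 5276 in all, and the other 8 libraries together had 66. MU14 thus held 98.8% of the counts of this gene, and every MU14 library was far above every other library. In MU14 the gene made up 45.3% to 65.7% of the cuticle protein counts other than those of Cpr49Ac.

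MU14 differed from each other strain in Cpr31A. The gene passed the count filter only through MU14, with 5276 counts there and 66 in the other strains. The p-values of MU14 against the others are thus for a gene admitted by its highest strain, and do not allow for that. Each of these pairs was also called with no filter. The log2 difference MU14 minus MU17 was 9.87 ± 0.61 (SE, adjusted p = 3.69e-05, edgeR) and MU14 minus MU26 was 7.03 ± 0.50 (6.20e-05). MU10 minus MU14 was −8.15 ± 0.53 (adjusted p = 4.75e-05, edgeR) and MU12 minus MU14 was −6.85 ± 0.48 (5.04e-05). These 4 calls held under every alternative and with any 1 library left out. Its log2 range of 8.87 was reached or exceeded by 16 of the 8415 tested genes, this gene included.

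Low levels of Cpr31A also differed among the remaining strains, on few counts. The gene passed the count filter only through MU14, as the other strains together had 66 counts. Those strains alone would have left it untested. MU12 had 16 and 14 counts and MU17 had 0 and 4, with a log2 difference MU12 minus MU17 of 3.02 ± 0.81 (adjusted p = 0.0319, edgeR). MU17 minus MU26 was −2.83 ± 0.87 (adjusted p = 0.0493, edgeR), with 7 and 13 counts in MU26. The first call was lost with limma-voom and without MU12 replicate 1, MU12 replicate 2 or MU17 replicate 1, and the second with limma-voom and without any 1 library other than MU17 replicate 2.

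None of the nearest measured genes reached the level of Cpr31A in MU14. CG33301, with a gap of 3012 bases, averaged 3.34 CPM in MU14, against 17.9 CPM in MU12 and 0.438 CPM in MU17. The gene obst-B, whose product is a chitin-binding protein of the obstructor family, was highest in MU26 with 1.495 CPM and averaged 0.225 CPM in MU14. CG44153, with a gap of 8186 bases, was highest in MU14 with a mean of 0.303 CPM, against 0 to 0.111 CPM in the other strains, and Spn31A was highest there too with 0.0407 CPM, against 0 to 0.0272 CPM, and neither had enough counts to be tested. The epidermal marker sum of 11.2 to 12.3 CPM in MU14 lay within the 5.38 to 17.2 CPM of the other strains, and that of the tracheal markers was 8.29, 6.87 and 9.08 CPM in MU14, against 3.69 to 7.94 CPM in the other strains. Salivary gland markers, of which 6 of 6 passed across strains, summed to 96.4, 30.7 and 34.5 CPM in MU14, against 44.8 and 113 CPM in MU17, 17.0 and 10.9 CPM in MU26, 14.8 and 12.9 CPM in MU12, and 6.02 and 3.50 CPM in MU10. The part of tracheal and salivary gland cells in the Cpr31A level was not tested.

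Lcp1, Lcp2, Lcp3 and Lcp4 encode the major cuticle proteins of the third-instar larva and form a group of neighbours (2R:8430115-8438495). Lcp1 (FBgn0002531), the most abundant, had 7.58, 23.7 and 16.5 CPM in MU14, 15.4 and 15 CPM in MU10, 11.9 and 12.8 CPM in MU17, 3.54 and 14.8 CPM in MU12, and 9.79 and 7.60 CPM in MU26. Lcp2 (FBgn0002533) averaged 2.08 to 3.46 CPM and Lcp4 (FBgn0002535) 1.64 to 4.08 CPM in a strain, with the highest mean in MU12 and the lowest in MU26. The libraries of different strains overlapped in all 3 genes, and none passed the test across strains (adjusted p = 0.538, 0.931 and 0.689, edgeR).

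The spread between libraries of 1 strain was wide in this group. In MU12 the ratio of replicate 2 to replicate 1 was 4.18 for Lcp1, 11.3 for Lcp2, 23.7 for Lcp3 and 6.09 for Lcp4. The same ratio was 10.4 for Lcp65Ab2, 7.08 for Cpr67B and 2.89 for Cpr78E, whereas it was 0.929 for Cpr49Ac, 1.01 for Cpr31A and 0.891 for TwdlE. In MU14 Lcp1 was 3.12 times higher in replicate 2, and 2.18 times higher in replicate 3, than in replicate 1, and Lcp4 was 4.26 and 3.25 times higher. For the summed epidermal markers the ratio was 0.900 in MU12, and 0.966 and 1.06 in MU14. The MU12 libraries also differed outside the cuticle protein genes. Of the fat body markers, Lsp1beta had 8848 and 25444 CPM in them, and Lsp2 had 43572 and 45641 CPM. Over all tested genes, the chi-square per degree of freedom between libraries of a strain was 248.6 in MU12. It was 53.95 in MU10, 57.34 to 62.14 in MU14, 128.8 in MU26 and 332.2 in MU17. Without MU12 replicate 2, Lcp1 and Lcp2 both passed in MU12 against MU14.

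**Figure D4:**
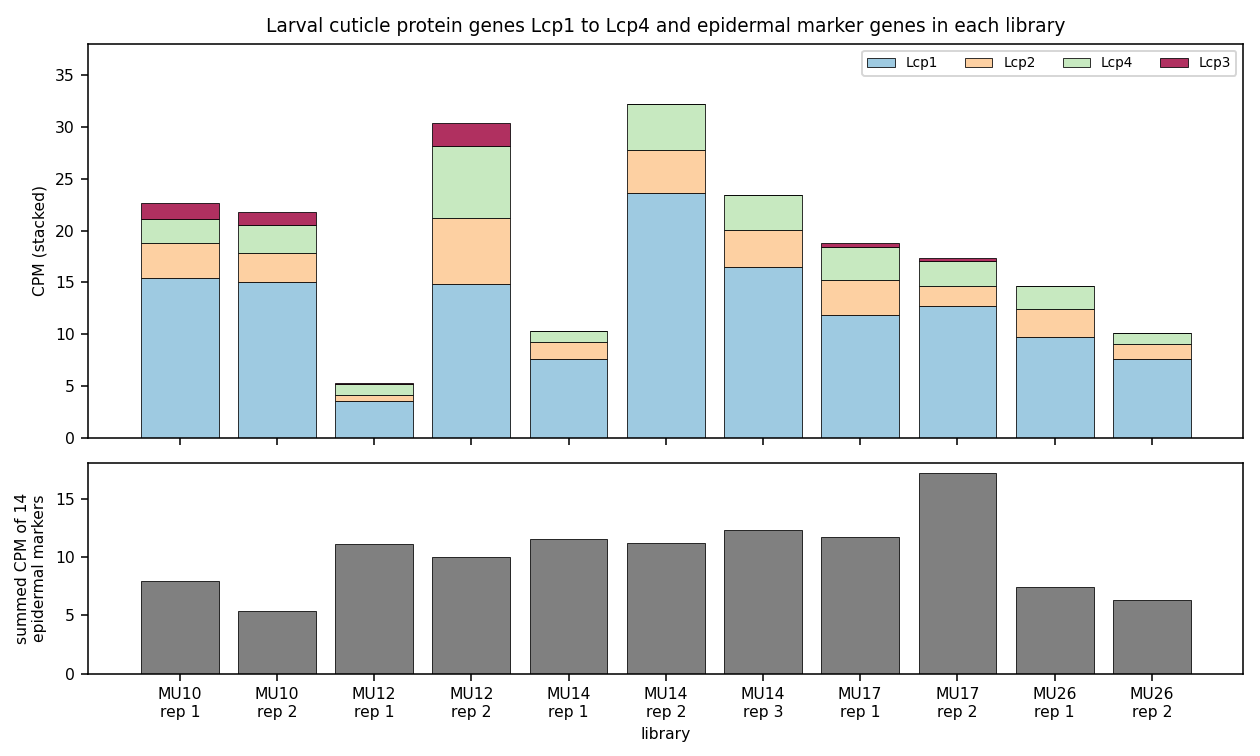
Stacked CPM of Lcp1, Lcp2, Lcp4 and Lcp3 in each library in the upper panel and the summed CPM of 14 epidermal marker genes in the lower panel, both from 0. MU12 replicate 1 is the lowest in the upper panel and replicate 2 among the highest, while their epidermal sums are 11.1 and 9.99 CPM, and Lcp3 is missing in all libraries of MU14 and MU26.

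Lcp3 (FBgn0002534; 2R:8435310-8436095, plus strand) had no counts in 2 of the strains. Its level was 1.58 and 1.27 CPM in MU10, 0.0939 and 2.23 CPM in MU12, 0.412 and 0.360 CPM in MU17, and 0 in the 2 libraries of MU26 and the 3 of MU14. These values rest on 73 and 43 counts in MU10, 4 and 82 in MU12, and 18 and 17 in MU17. Every library of MU10, MU12 and MU17 was thus above every library of MU14 and MU26, where the neighbouring genes were measured.

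Set against its neighbours, Lcp3 made up 6.47% of the counts of the 4 genes in MU10 (95% exact interval 5.38% to 7.71%), 6.38% in MU12 (5.13% to 7.82%) and 2.13% in MU17 (1.49% to 2.95%). In MU14 it was 0 of 2666 counts, which by the limit of 3 counts allows a share of up to 0.113% (upper end of the exact interval 0.138%), and in MU26 0 of 756, which allows up to 0.397% (0.487%). Pairs of reads without molecular identifiers are not independent molecules, so these intervals and limits cover counting error only. They pool the libraries of a strain and leave out the spread between them. In MU12 the share was 1.75% in replicate 1, outside the interval, and 7.32% in replicate 2. With 3 counts over all libraries of a strain taken as its floor, the level of Lcp3 in MU10 was at least 56.6-fold higher than in MU14 and at least 28.6-fold higher than in MU26.

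By the model across all genes, the support for Lcp3 was close to the threshold. The gene passed the count filter only with MU10, whose libraries held 73 and 43 of its 237 counts. It passed across strains (adjusted p = 0.0422, edgeR), in MU10 against MU14 (0.0360) and in MU12 against MU14 (0.0334), and did not in MU10 against MU26 (0.0789) or MU12 against MU26 (0.0683). The call across strains was lost, with adjusted p between 0.0570 and 0.101, when any 1 of the 9 libraries of MU10, MU14, MU17 and MU26 was left out. It was kept without either MU12 library. The call of MU10 against MU14 was lost without any 1 library of MU10, MU14 or MU17. That of MU12 against MU14 was lost in the same settings, with limma-voom and without MU12 replicate 2. Of the genes beside the group, CSN7 averaged 28.7 to 35.4 CPM and did not pass (adjusted p = 0.191, edgeR), and Cyp4ad1, a cytochrome P450 gene, averaged 82.9 CPM in MU10 and 3.82 to 10.4 CPM in the other strains.

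TwdlE (FBgn0031957; 2L:7857957-7860839, minus strand), the only Tweedle gene that could be tested, was highest in MU17. It had 4.42 and 4.11 CPM in MU17, against 1.74 and 3.23 CPM in MU26, 2.21, 1.69 and 2.04 CPM in MU14, 1.55 and 1.79 CPM in MU10, and 1.74 and 1.55 CPM in MU12. Both MU17 libraries were above all others. It passed across strains (adjusted p = 0.0108, edgeR), with a log2 difference MU12 minus MU17 of −1.37 ± 0.28 (0.0103), MU10 minus MU17 of −1.35 ± 0.28 (0.0122) and MU14 minus MU17 of −1.11 ± 0.24 (0.0168).

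Of the 1346 exon bases of TwdlE, 968 overlap exons of lectin-28C on the opposite strand. This lectin gene was also highest in MU17, with 141.6 ± 18.4 CPM in MU17 and strain means of 32.3 to 65.7 CPM elsewhere (adjusted p across strains = 4.54e-04, edgeR). TwdlE was 2.86% and 3.20% of the lectin-28C level in MU17, and between 2.20% and 11.6% in the other strains. Whether strand was used in the counting is not given in the sources used here, and read pairs that fitted more than 1 gene were discarded. It therefore cannot be told whether reads of the shared bases were assigned by strand or dropped from both genes. Without MU17 replicate 1 the call of TwdlE across strains was lost (adjusted p = 0.0560, edgeR), and that of MU17 over MU12 was lost without MU12 replicate 2 (0.0568). The call of MU17 against MU10 was lost without either MU10 library, and that against MU14 without MU14 replicate 2 or either MU17 library.

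Cpr67Fb (FBgn0036110; 3L:10894173-10894693, plus strand) was a low gene with its highest level in MU10. It had 0.799 and 1.29 CPM in MU10, 0.446 and 0.869 CPM in MU12, 0.372, 0.172 and 0.364 CPM in MU14, 0.222 and 0.347 CPM in MU26, and 0.275 and 0.170 CPM in MU17. MU10 and MU12 overlapped, and both lay above the other 3 strains. The gene passed the count filter only with MU10, whose libraries held 37 and 44 of its 205 counts. Without that strain it would have been left untested. It passed across strains (adjusted p = 0.0225, edgeR), in MU10 minus MU17 (log2 2.22 ± 0.53, 0.0225), in MU10 minus MU14 (1.77 ± 0.46, 0.0287) and in MU10 minus MU26 (1.87 ± 0.54, 0.04997). Of its 457 exon bases 389 overlap the non-coding gene asRNA:CR45171 on the opposite strand. The call across strains was lost without MU10 replicate 2 (adjusted p = 0.0970, edgeR), and that of MU10 over MU17 without MU10 replicate 2, MU17 replicate 1 or MU17 replicate 2 (0.119, 0.0554 and 0.126). The call of MU10 over MU14 was lost without any 1 library of these 2 strains, and that of MU10 over MU26 under every alternative but DESeq2 and without any 1 library other than those of MU12.

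Lcp65Ab2 (FBgn0020643; 3L:6146674-6147089, plus strand, 1 exon) had 0.188 and 1.96 CPM in MU12, 0.452, 1.10 and 0.534 CPM in MU14, 0.317 and 0.0694 CPM in MU26, 0.173 and 0.118 CPM in MU10, and 0.0458 and 0.0424 CPM in MU17. The libraries of MU14 were above those of MU10, MU17 and MU26, and those of MU12 lay on both sides. It passed across strains with an adjusted p of 0.0469 (edgeR) and in MU12 minus MU17 with a log2 difference of 4.49 ± 1.24 (0.0344). Its near-identical neighbour Lcp65Ab1 averaged at most 0.186 CPM in a strain, and both values are uncertain. The call across strains was lost with limma-voom (adjusted p = 0.180) and without any 1 of 8 libraries (0.0513 to 0.119, edgeR). It was kept without MU12 replicate 1, and without MU12 replicate 2 or MU14 replicate 2 the gene had too few counts to be tested. The call of MU12 over MU17 was lost with limma-voom and without either MU10 library, MU14 replicate 3 or either MU17 library.

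The other tested Cpr genes did not pass across strains. Cpr78E (FBgn0037114) had 3.30 and 3.45 CPM in MU17 and 0.845 to 2.85 CPM in the other strains (adjusted p = 0.280, edgeR), and passed without MU12 replicate 2 (0.0222). Cpr67B (FBgn0035985) averaged 1.04 CPM in MU10 and 0.297 CPM in MU26 (adjusted p = 0.352, edgeR), and passed without MU12 replicate 1 (0.0373) or replicate 2 (0.0307). Cpr49Ag (FBgn0033730) averaged 1.10 CPM in MU10 and 0.437 CPM in MU12 (adjusted p = 0.273, edgeR). Cpr57A (FBgn0034517) averaged 1.08 CPM in MU10 and 0.473 CPM in MU26 (adjusted p = 0.187, edgeR). All of its 1488 exon bases lie in exons of Obp57d on the same strand in the annotation used here. Obp57d averaged 0 CPM in every strain. Cpr57A nevertheless had 293 counts, with some in all 11 libraries, although read pairs that fitted more than 1 gene were discarded. How the shared bases were treated in the counting is therefore not known, and the level of Cpr57A is uncertain.

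In pairs of strains between 1 and 4 of the 13 tested cuticle protein genes were called. The counts were 1 in MU10 against MU12 (19.6% of all tested genes were called there), 4 in MU10 against MU14 (19.2%), 3 in MU10 against MU17 (19.0%) and 1 in MU10 against MU26 (15.5%). They were 3 in MU12 against MU14 (26.5%), 3 in MU12 against MU17 (21.0%) and 1 in MU12 against MU26 (25.1%). They were 2 in MU14 against MU17 (16.6%), 2 in MU14 against MU26 (19.9%) and 2 in MU17 against MU26 (20.9%). The pairs share libraries and are not independent.

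Single libraries moved most of these counts, and the shares of all tested genes called in these reduced fits are not given here. MU10 against MU12 had 0 without either MU10 library and 3 without MU12 replicate 2. MU10 against MU14 had 2 without any 1 library of those strains, and MU10 against MU17 had 1 without MU10 replicate 2. MU10 against MU26 had 3 without either MU12 library and 0 without any 1 of the others except MU26 replicate 1. MU12 against MU14 had 5, and MU12 against MU17 had 1, without MU12 replicate 2, and the second also had 1 without MU17 replicate 1. MU12 against MU26 had 3 without MU12 replicate 1 and 0 without either MU10 library, MU12 replicate 2, MU14 replicate 1 or MU26 replicate 2. MU14 against MU17 had 4 without MU12 replicate 1 and 1 without either MU17 library, and MU17 against MU26 had 1 without any 1 library other than those of MU12 and MU26 replicate 2. MU14 against MU26 had 2 throughout, Cpr31A and Cpr49Ac.

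Among the genes too low to be tested, a few chosen after their values were seen had uneven counts. Cpr12A (X:13543643-13544907) had 57 counts in MU17 replicate 2 and 3 to 25 in every other library. Cpr11A (X:12486970-12489448) had 16 counts in each MU17 library, 7 and 15 in MU12, 2 and 1 in MU10, 0, 0 and 3 in MU14, and 0 in both libraries of MU26. TwdlW (3R:17141208-17142404) had 7, 9 and 19 counts in MU14, 8 and 13 in MU17, and 0 to 4 in the other libraries. Cpr92F (3R:20669571-20672821) had 13, 10 and 4 counts in MU14 and 1 to 4 in the other libraries. In fits that kept such low genes, Cpr11A and TwdlW passed across strains with no filter, and Cpr11A, TwdlW and Cpr92F passed with edgeR's filterByExpr.

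Genes that act with cuticle proteins were measured beside them. Of 29 genes of chitin synthesis, assembly and turnover 20 were tested and 8 passed across strains, against 48.3% of all tested genes. The median log2 range was 0.97 over those tested, against 0.78 over all tested genes. The gene kkv, which encodes the chitin synthase of epidermis and trachea, lay between 0.410 and 1.504 CPM and did not pass (adjusted p = 0.183, edgeR). Gfat2, an enzyme of the hexosamine pathway that supplies chitin synthesis, had 109.5 and 100.5 CPM in MU12, against 18.7, 16.2 and 20.4 CPM in MU14 (log2 difference 2.51 ± 0.20, adjusted p = 1.04e-04, edgeR). The widest range of the 8 was that of rtv, which is needed for the organisation of chitin fibres in the trachea, with 4.72 and 3.67 CPM in MU17, against 0.399 and 0.244 CPM in MU12 (3.68 ± 0.34, adjusted p = 3.27e-04, edgeR). Among the chitin deacetylase genes, Cda5 had 8.08 and 11.7 CPM in MU12, against 1.89, 2.87 and 2.21 CPM in MU14, and Cda9 had 1.14 and 1.63 CPM in MU26, against 0.211 and 0.136 CPM in MU12.

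Of 21 other cuticle protein genes, whose names fall outside the rule, 7 were tested and 3 passed, again beside 48.3% of all tested genes, with a median log2 range of 2.01 beside 0.78 over all tested genes. Pcp, which encodes a pupal cuticle protein, had 36.6 and 49.1 CPM in MU26, 37.2 and 41.6 CPM in MU17, and 15.8 and 16.1 CPM in MU10 (MU26 over MU10 log2 1.43 ± 0.17, adjusted p = 0.00133, edgeR). Pcp lies on the opposite strand inside Gart, a gene of purine synthesis at 4480 to 7375 CPM in strain means, and shares no exon base with it, so reads from unspliced Gart RNA cannot be told apart from its own where strand is not used. The obstructor gene obst-J had 32.7 and 9.83 CPM in MU12, against 0.0633 and 0.0694 CPM in MU26 (8.26 ± 0.75, adjusted p = 2.00e-04, edgeR), and lies on the opposite strand inside gig. The third to pass was obst-B, and obst-F, obst-G and obst-I had no counts.

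Of 19 measured genes of cuticle tanning and pigment 14 were tested and 4 passed, a lower share than the 48.3% of all tested genes, with a median log2 range of 1.41 beside 0.78. They were ebony (e), Punch (Pu), Ddc and yellow-d2. The gene Ddc, which encodes the dopa decarboxylase that makes dopamine for tanning, had 6.57, 7.73 and 5.27 CPM in MU14, against 2.44 and 2.88 CPM in MU12 (log2 difference 1.29 ± 0.22, adjusted p = 0.00371, edgeR). Of 19 measured genes of the ecdysone response, the steroid signal that times moulting, 17 were tested and 4 passed (Eip75B, Eip74EF, ImpE1 and ImpE3), also a lower share than 48.3%, with a median log2 range of 1.39. Eip75B, a nuclear receptor gene, had 467.6 and 546.8 CPM in MU26, against 219.3 and 174.7 CPM in MU12 (1.36 ± 0.16, adjusted p = 6.23e-04, edgeR), and Eip74EF had 417.3 and 398.2 CPM in MU10, against 249.4 and 216.6 CPM in MU12 (0.81 ± 0.18, adjusted p = 0.0144, edgeR). MU12 was the lowest strain in both, but not in the other genes that passed. ImpE3 was highest in MU12 with a mean of 2.10 CPM, against 0.586 CPM in MU26. ImpE1 was lowest in MU10 with 0.860 CPM, against 1.504 CPM in MU12.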

How the data were processed

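Per the study's methods, the authors selected poly-A RNA, mapped paired reads with NextGenMap to the transcripts of FlyBase, dropped read pairs with more than 1 target and added up the transcripts of each gene. The deposited values were raw read counts per gene and a length per gene. The members, the gene lists and the tests were chosen with earlier results of these data known. All 117 genes were matched by FlyBase identifier to the Ensembl annotation of BDGP6.54, which gave symbols and positions. Lcp1Psi, Lcp65APsi and TwdlU were not analysed here.

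Counts of genes that averaged 15 or more in a library were scaled by TMM. A model with 1 term per strain over all 11 libraries was fitted in edgeR 4.0.16 under R 4.3.3. Quasi-likelihood tests across strains and in each of 10 pairs were adjusted over all tested genes at a false discovery rate of 0.05. Log2 differences are first minus second strain, and p-values measure only the spread between these libraries. CPM per kb used the deposited length. The log2 range added 0.0514 CPM to each strain mean. On simulated counts for 8353 genes, the test across strains found 43 of 100 genes with a 2-fold change and 94 of 100 with a 4-fold change, and 2 of its 139 calls were false. Alternatives were RLE and upper-quartile scaling, no filter, filterByExpr, DESeq2 (version 1.42.0), limma-voom (limma version 3.58.1), a block for replicate number and each library left out. Named were genes at 10 CPM in every strain, tested genes past the test across strains, those nearest the 10 CPM limit, the 6 most abundant others, and per list up to 4 genes that passed with the widest range.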

Additional observations from a re-analysis of the deposited data

How the results depend on the processing

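Across strains, 3 cuticle protein genes (Cpr31A, Cpr49Ac and TwdlE) passed with a replicate block, against 6 without it. Of all tested genes 37.2% passed with the block and 48.3% without it. This share was 59.6% with DESeq2 and 46.0% with limma-voom. For pairs of strains, such shares are not given here for the alternatives or with a library left out. The pair counts below thus have no background beside them. With the block MU10 against MU14, MU10 against MU17, MU12 against MU14 and MU12 against MU17 had 2 each, and MU14 against MU17 and MU17 against MU26 had 1 each. The calls lost were Lcp3 and Cpr67Fb in MU10 against MU14, Cpr67Fb in MU10 against MU17 and MU26, Lcp3 in MU12 against MU14, Lcp65Ab2 in MU12 against MU17, TwdlE in MU14 against MU17 and Cpr31A in MU17 against MU26. The numbers pair no samples by the labels, and correlations of same-numbered deviations lay between −0.303 and 0.268. MU10 against MU26 had 0 under RLE, upper-quartile scaling, no filter, filterByExpr, limma-voom and the block, and 2 under DESeq2. MU12 against MU26 had 2 under no filter, filterByExpr and DESeq2, MU12 against MU14 had 5 under filterByExpr, MU14 against MU17 had 4 under filterByExpr and 5 under DESeq2, MU10 against MU12 had 2 under DESeq2, and MU12 against MU17 had 1 under limma-voom. With no filter 8 of 102 genes with a count passed across strains (29.3% of all genes so tested), and with filterByExpr 9 of 25 (46.2%). At a limit of 5 CPM, 2 genes passed in every strain.

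With each library left out, the count across strains lay between 3 and 7. It lay between 0 and 3 in MU10 against MU12, MU10 against MU26 and MU12 against MU26, 2 and 5 in MU10 against MU14 and MU12 against MU14, 1 and 4 in MU10 against MU17 and MU14 against MU17, 1 and 3 in MU12 against MU17, 2 and 2 in MU14 against MU26, and 1 and 2 in MU17 against MU26. The count at 10 CPM stayed 1. Across strains, the share of all tested genes called was below the 48.3% of the full fit each time. MU12 over MU26 turned round for Lcp2 with limma-voom (log2 −0.20) and without MU12 replicate 2. With each library left out it lay between −1.88 and 1.61 for Lcp2 and between −0.53 and 2.09 for Lcp4, the lowest without MU12 replicate 2. Upper-quartile scaling moved the median of all genes by −0.145 in MU10 against MU14 and −0.104 in MU12 against MU14. The cause of these changes was not tested. Genes under a mean of 15 counts per library were tested only with no filter and with filterByExpr.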
